A study of Mus musculus with 13 samples.

Results

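Interferon-stimulated and RNA-sensing genes were followed one by one in primary mouse embryonic fibroblasts (MEFs) in which the H3K9 methyltransferase Setdb1 had been knocked down, DNA methylation had been inhibited with 5-azacytidine (5-aza), or both. The genes were taken by symbol from a list of 46 that covers RNA sensors, their signalling proteins, interferon regulatory factors and antiviral effectors. Of these, 45 were present among the 25965 genes of the deposited table, whose coordinates are those of mm10, 31 reached the level required for testing (1 RPM, that is 1 read per 1 M reads, or more in 3 or more libraries that carry a hairpin) and 14 did not. The remaining gene, Ifi27, was not found by that name. The cells of the hairpin libraries were XXist∆A/XPGK MEFs from E13.5 embryos, which carry an Xist deletion allele that fixes the choice of the inactive X chromosome. They were transduced with retroviral hairpins and selected with puromycin, and in the 5-aza groups the drug was given for 24 h from day 3, with RNA taken on day 7 in every group. There were 4 groups of 3 libraries: control hairpin, control hairpin + 5-aza, Setdb1 hairpin and Setdb1 hairpin + 5-aza. Within each group, replicate 1 carried the luciferase hairpin or shSetdb1.6, and replicates A and B carried the non-silencing hairpin or shSetdb1.4. According to the study's methods the Setdb1 hairpin cells were also heterozygous for a Setdb1 gene-trap allele (Setdb1+/gt), whereas the non-silencing cells were Setdb1+/+. The genotype of the luciferase cells was not given in the sources used here, so hairpin and genotype cannot be told apart. Nothing states that the libraries came from separate embryos, so all p-values measure only the spread between these libraries. One further library, treated with 5-aza, without a named hairpin and with the library name PGK_5aza, entered no comparison.

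Cells recognise viral or other double-stranded RNA through the cytosolic helicases encoded by Ddx58 (RIG-I), Ifih1 (MDA5) and Dhx58 (LGP2), through the endosomal receptor Tlr3 and through the kinase encoded by Eif2ak2 (PKR). The helicases encoded by Ddx58 and Ifih1 signal through the mitochondrial adaptor Mavs to interferon regulatory factors, which switch on type I interferon. Secreted interferon binds its receptor and activates a complex that includes Stat2 and Irf9 and binds the interferon-stimulated response element (ISRE) in the promoters of many interferon-stimulated genes. These genes encode antiviral proteins, and several of the sensors and regulators are themselves interferon-stimulated. DNA methyltransferase inhibitors such as 5-aza and the loss of H3K9 methyltransferases are both known to release transcripts of endogenous retroviruses in mouse cells.

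Between 36.4 and 51.3 M (mega) reads fell in genes in each hairpin library, so that 1 read was worth 0.017 to 0.0239 RPM. Setdb1 itself stood at 46.4, 46.1 and 46.3 RPM in the control hairpin libraries and at 12.1, 15.4 and 14.7 RPM in the Setdb1 hairpin libraries, in the order of replicates 1, A and B that is kept throughout. Every Setdb1 hairpin library lay below every control library, with a log2 fold change of -1.73 without 5-aza (adjusted p = 1.52e-06) and -1.76 with it (adjusted p = 1.25e-06; limma, Benjamini-Hochberg over 13134 genes, as for every adjusted p here). The 8 fibroblast markers summed to between 14008 and 23488 RPM. The 5 lymphocyte markers summed to at most 0.149 RPM in any of the 12 libraries. The macrophage markers differed from one another. Emr1, Aif1 and Tyrobp never exceeded 0.0861 RPM, whereas Cd68 ranged from 1.52 to 3.11 RPM and Csf1r from 7.12 to 9.85 RPM. Itgam stood at 0.302 to 0.513 RPM in control hairpin and 1.15 to 1.31 RPM with 5-aza. In the Setdb1 hairpin libraries, with or without 5-aza, Itgam stood at 0.360 to 0.578 RPM. The summed level of the 11 macrophage markers found was 11.0 to 11.8 RPM in the 6 untreated libraries, 14.5 to 16.4 RPM in control hairpin + 5-aza and 14.2 to 15.4 RPM in Setdb1 hairpin + 5-aza. Csf1r made up most of this sum. The 5 epithelial markers, chiefly Krt18, summed to 2.70 to 3.20 RPM in control hairpin, 9.17 to 11.0 RPM with 5-aza, 9.68 to 10.6 RPM in Setdb1 hairpin and 20.9 to 23.6 RPM with 5-aza. The 5 endothelial markers summed to 6.19 to 8.20 RPM in the untreated and 4.22 to 6.28 RPM in the treated libraries. The part of these shifts in the results was not tested, and in bulk RNA a change in the number of cells of a type cannot be told apart from a change in RNA per cell. Replicate A stood apart for the listed genes. It was the highest of its group for 26 of the 31 tested genes in control hairpin + 5-aza, where it was highest for 31.8% of all genes, and for 26 of 31 in Setdb1 hairpin + 5-aza, where it was highest for 35.0% of all genes. Results that rest on these 2 libraries are therefore also given without them.

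Every call made on these genes after 5-aza, in both kinds of cell, was towards a higher level. In control hairpin cells 10 of the 31 tested genes were called higher, against 13.47% of all genes, and 0 were called lower, against 5.34% of all genes. In Setdb1 hairpin cells 19 of 31 were called higher, against 21.4% of all genes, and 0 were called lower, against 7.51% of all genes. All 10 genes called in control hairpin cells were also among the 19, and 10 of the 19 rose at least 2-fold, led by Usp18, Isg15, Ifit3, Oasl2 and Ifit1. In control hairpin cells Ifit1 and Igtp were the 2 that rose at least 2-fold. The median log2 fold change of the 31 genes was 0.36 in control hairpin cells and 0.37 in Setdb1 hairpin cells, where the median of all genes was 0.042 and 0.058. At an unadjusted p under 0.05, 15 of the 31 genes passed in control hairpin cells, each with a positive change, and 22 in Setdb1 hairpin cells. Of all 13134 genes, 4473 and 5448 passed at that level, in either direction. limma voom on the read counts recovered from the table also called 10 and 19 genes higher, against 13.6% and 21.5% of all genes, and 0 lower. Of the 31, 25 reached the test level in the untreated libraries alone, and 8 of these were called higher in control hairpin cells, against 12.9% of all genes of that kind, and 13 in Setdb1 hairpin cells, against 20.9%. The other 6 (Gbp3, Isg15, Oasl2, Usp18, Irf7 and Ifit1) entered the test only through their levels after 5-aza, so that a rise was favoured by the filter itself. Of these, 2 were called higher in control hairpin cells, against 37.5% of all genes of that kind, and 6 in Setdb1 hairpin cells, against 41.3%. Centring each library on its median left 7 and 16 genes called and quantile normalisation 3 and 16. Over all genes the share of calls that were higher went from 71.6% to 49.0% and 52.0% in control hairpin cells. In Setdb1 hairpin cells it went from 74.0% to 52.3% and 55.2%. In control hairpin cells quantile normalisation called 2297 of all 13134 genes, 52.0% of them higher. The 3 listed genes called higher there were thus close to the share of all genes.

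**Figure D1:**
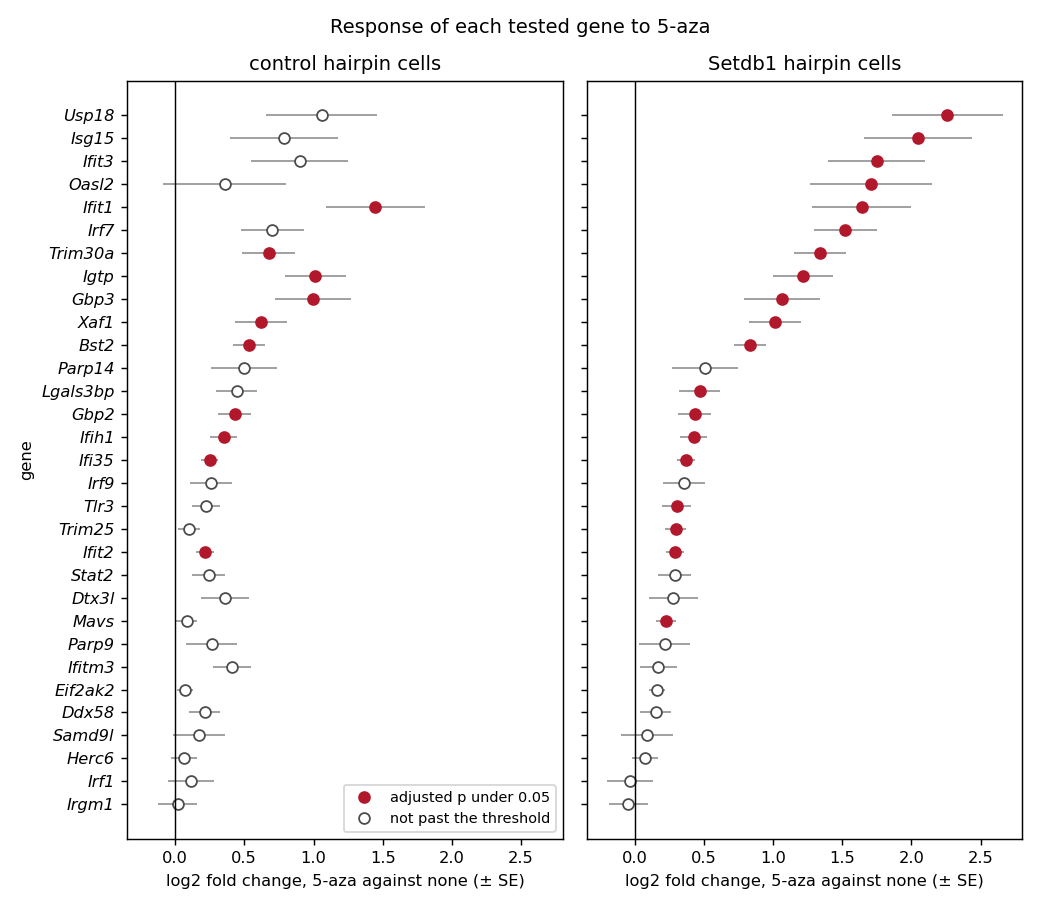
Log2 fold change of each of the 31 tested genes after 5-aza (horizontal axis; bars are the standard error) in control hairpin cells on the left and Setdb1 hairpin cells on the right, with filled points for an adjusted p under 0.05. The 10 filled points on the left and the 19 on the right all lie above 0, and the largest, Usp18 in Setdb1 hairpin cells, lies at 2.26. Gbp3, Isg15, Oasl2, Usp18, Irf7 and Ifit1 entered the test only through their levels after 5-aza, which favours a rise.

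Libraries that shared a hairpin and a replicate label were also compared one to one. With 5-aza, 26 of the 31 genes were higher in control hairpin 1 (62.1% of all genes), 31 in control hairpin A (55.5%) and 25 in control hairpin B (61.1%). In the Setdb1 hairpin cultures, 29 were higher in replicate 1 (60.3%), 29 in A (62.7%) and 30 in B (61.9%). The median difference in log2 RPM over the 31 genes was 0.22, 0.61 and 0.16 in the control cultures and 0.38, 0.56 and 0.285 in the Setdb1 hairpin cultures, where the median of all genes lay between 0.026 and 0.066. In both sets replicate A showed the largest median and replicate B the smallest. In all 6 comparisons 24 of the 31 genes were higher with 5-aza, as were 27.7% of all genes. The other 7 were Isg15, Oasl2, Eif2ak2, Herc6, Samd9l, Irf1 and Irgm1. The 31 include the 6 genes that entered the test only through their levels after 5-aza, of which Gbp3, Usp18, Irf7 and Ifit1 are among the 24. The filter therefore favoured a rise in these counts and medians.

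**Figure D2:**
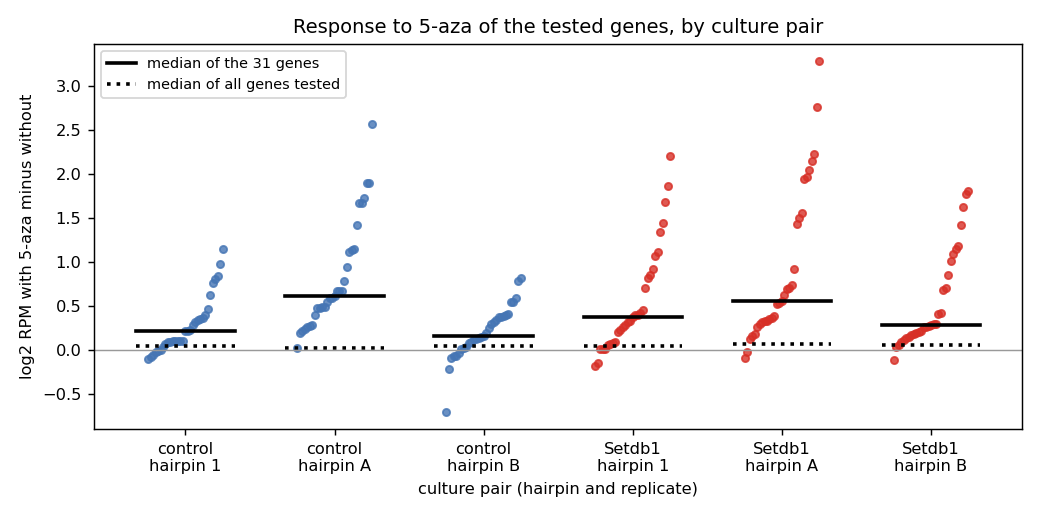
Difference in log2 RPM between the library with 5-aza and the library without it (vertical axis) for each of the 31 tested genes, sorted within each of 6 cultures on the horizontal axis; the solid bar is the median of the 31 genes and the dotted bar the median of all genes tested. Every solid bar lies above its dotted bar, from 0.16 in control hairpin B to 0.61 in control hairpin A. The 31 include the 6 genes that entered the test only through their levels after 5-aza, which favours a rise.

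**Figure D3:**
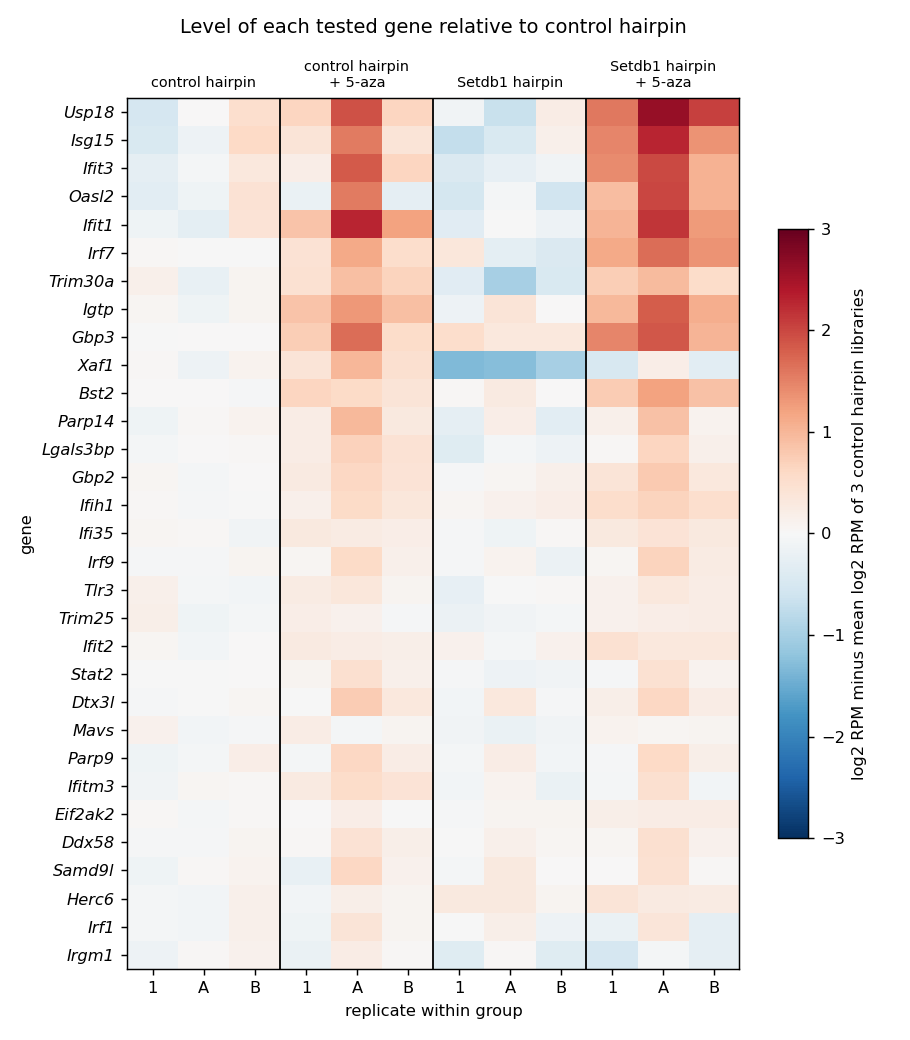
Level of the 31 tested genes (rows, ordered by their change in Setdb1 hairpin cells) in the 12 hairpin libraries (columns), as log2 RPM minus the mean log2 RPM of the 3 control hairpin libraries. The 5-aza columns are redder than the untreated ones in the upper rows, most in both replicate A columns, and Xaf1 is blue in all 3 Setdb1 hairpin libraries.

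Among the RNA sensors and their adaptor, 3 of the 5 tested genes rose after 5-aza in Setdb1 hairpin cells (21.4% of all genes) and 1 in control hairpin cells (13.47% of all genes), all by less than 2-fold. Of the 3, Mavs kept its call in 15 of 23 alternatives and Tlr3 in 8 of 22, and both lost it with median centring. Ifih1 (ENSMUSG00000026896, chr2:62595798-62646255), which encodes the sensor of long double-stranded RNA, stood at 5.14, 4.90 and 5.01 RPM in control hairpin, 5.53, 7.49 and 6.33 with 5-aza, 5.25, 5.51 and 5.76 in Setdb1 hairpin and 7.21, 7.96 and 7.07 RPM with 5-aza. Treated and untreated libraries did not overlap in either set of cells. Its log2 fold change was 0.35 ± 0.097 (adjusted p = 0.0264) in control hairpin cells and 0.43 ± 0.097 (adjusted p = 0.00822) in Setdb1 hairpin cells. Mavs (ENSMUSG00000037523, chr2:131234063-131248025), the adaptor of the helicases encoded by Ddx58 and Ifih1, had the highest level per kilobase of exon among the sensors (9.76 ± 0.818 RPM per kb, SD, n = 3 control hairpin libraries), and stood at 35.8, 30.6 and 31.5 RPM in control hairpin, 38.2, 31.3 and 34.3 with 5-aza, 30.4, 28.2 and 30.0 in Setdb1 hairpin and 35.2, 34.0 and 34.7 RPM with 5-aza. The control groups overlapped and the Setdb1 hairpin groups did not. It rose in Setdb1 hairpin cells by 0.23 ± 0.073 (adjusted p = 0.0359) and was not called in control hairpin cells (0.083 ± 0.073 (adjusted p = 0.455)). Tlr3 (ENSMUSG00000031639, chr8:45395665-45410608), the endosomal receptor of double-stranded RNA, stood at 3.87, 3.34 and 3.32 RPM in control hairpin, 4.15, 4.41 and 3.72 with 5-aza, 2.96, 3.47 and 3.57 in Setdb1 hairpin and 3.85, 4.38 and 4.08 RPM with 5-aza. The treated Setdb1 hairpin libraries lay above the untreated ones, whereas the control groups overlapped. The log2 fold change was 0.30 ± 0.10 (adjusted p = 0.0429) in Setdb1 hairpin cells and 0.22 ± 0.10 (adjusted p = 0.147) in control hairpin cells. Ddx58 and Eif2ak2, the 2 sensors that did not pass the test, were expressed at 39.0 ± 2.07 and 29.0 ± 0.875 RPM (SD, n = 3) in control hairpin cells. After 5-aza their log2 fold changes were 0.15 ± 0.11 (adjusted p = 0.321) and 0.16 ± 0.058 (adjusted p = 0.0523) in Setdb1 hairpin cells. In a fit that compared the Setdb1 hairpin libraries within their pairs (the replicate block), 24 genes were called higher, against 28.3% of all genes, and Eif2ak2 was among them (adjusted p = 0.0373). For Ddx58 the 2 replicate A libraries with 5-aza, at 52.8 and 54.1 RPM, lay above the other treated libraries, which ranged from 39.6 to 44.1 RPM.

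Of the interferon-responsive transcription factors, Irf7 (ENSMUSG00000025498, chr7:141262706-141266481), the regulator that amplifies interferon transcription, rose in Setdb1 hairpin cells. It stood at 0.893, 0.866 and 0.863 RPM in control hairpin, 1.18, 1.92 and 1.27 with 5-aza, 1.10, 0.715 and 0.646 in Setdb1 hairpin and 1.94, 2.80 and 2.21 RPM with 5-aza. Every treated library lay above every untreated one, and all 3 Setdb1 hairpin + 5-aza libraries lay above all 3 of control hairpin + 5-aza. Irf7 entered the test only through its levels after 5-aza, which favours a rise. Its log2 fold change was 1.52 ± 0.23 (adjusted p = 0.000961) in Setdb1 hairpin cells and 0.70 ± 0.23 (adjusted p = 0.0505) in control hairpin cells, the latter just short of the threshold. Stat2 and Irf9, partners in the interferon-activated complex, and Irf1, a factor induced by interferon gamma, were not called without the replicate block. Stat2 stood at 12.7, 11.7 and 12.1 RPM in Setdb1 hairpin and 12.8, 18.0 and 14.2 RPM with 5-aza, without overlap (log2 fold change 0.29 ± 0.12 (adjusted p = 0.0873)). Irf9 changed by 0.36 ± 0.15 (adjusted p = 0.0957) and Irf1 by -0.032 ± 0.17 (adjusted p = 0.901) in the same cells. With the replicate block Stat2 (adjusted p = 0.0488) and Irf9 (adjusted p = 0.0219) were called higher. The exons of Irf7 and Irf9 overlap those of Phrf1 and Rnf31. Whether the counting used strand was not given in the sources used here, so reads of overlapping genes cannot be told apart.

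In the ISG15 system, Usp18 and Isg15 gave the largest log2 fold changes of the 31 tested genes in Setdb1 hairpin cells, Trim25 rose by less than 2-fold and Herc6 was not called. Isg15 encodes a ubiquitin-like protein that is conjugated to other proteins in the interferon response, Usp18 the protease that removes it and that restrains the interferon receptor, Herc6 the main mouse ISG15 ligase and Trim25 a ubiquitin ligase of the RIG-I pathway. Isg15 (ENSMUSG00000035692, chr4:156199424-156200818) stood at 0.404, 0.495 and 0.841 RPM in control hairpin, 0.726, 1.64 and 0.726 with 5-aza, 0.334, 0.400 and 0.612 in Setdb1 hairpin and 1.53, 2.70 and 1.39 RPM with 5-aza. In Setdb1 hairpin cells all 3 treated libraries were above all 3 untreated ones, whereas control hairpin + 5-aza replicates 1 and B lay below control hairpin B. Its change on the log2 scale was 2.05 ± 0.39 (adjusted p = 0.00334) in Setdb1 hairpin cells and 0.79 ± 0.39 (adjusted p = 0.177), not called, in control hairpin cells. Usp18 (ENSMUSG00000030107, chr6:121245906-121270916) stood at 0.234, 0.336 and 0.475 RPM in control hairpin, 0.518, 1.25 and 0.521 with 5-aza, 0.310, 0.210 and 0.391 in Setdb1 hairpin and 0.997, 2.04 and 1.37 RPM with 5-aza. Treated and untreated libraries did not overlap in either set, and replicate A was the highest treated library in both. Its log2 fold change of 2.26 ± 0.40 (adjusted p = 0.00246) in Setdb1 hairpin cells was the largest of the 31, and in control hairpin cells it was 1.06 ± 0.40 (adjusted p = 0.0849). Both genes entered the test only through their levels after 5-aza, which favours a rise. The counts behind these values were small: Usp18 had 13, 10 and 23 reads in the Setdb1 hairpin libraries and 52, 102 and 69 with 5-aza. Trim25 (ENSMUSG00000000275, chr11:88999376-89020293) stood at 52.2, 42.1 and 44.0 RPM in control hairpin, 52.4, 50.5 and 45.0 with 5-aza, 40.9, 42.5 and 44.1 in Setdb1 hairpin and 49.8, 52.9 and 53.8 RPM with 5-aza. The control groups overlapped and the Setdb1 hairpin groups did not, with log2 fold changes of 0.10 ± 0.078 (adjusted p = 0.387) and 0.30 ± 0.078 (adjusted p = 0.0160). Herc6, not called in any comparison, stood at 4.48, 4.40 and 5.18 RPM in control hairpin and 5.77, 5.72 and 4.96 RPM in Setdb1 hairpin, and all 3 Setdb1 hairpin + 5-aza libraries (6.10, 5.64 and 5.57 RPM) lay above the control hairpin + 5-aza libraries (4.42, 5.32 and 4.95 RPM).

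Promoter letters are shown for the genes that rose most in Setdb1 hairpin cells and have a window (Isg15, Ifit3, Oasl2, Ifit1 and Irf7) and for the genes that differed between hairpins (Bst2 and Xaf1). RefSeq promoter windows (GRCm38.p6, 250 bases before to 50 bases after an annotated start) were found for 36 of the 45 genes present. An ISRE core, TTTC followed after any 2 bases by TTTC, searched on both strands (GAAA, any 2 bases, GAAA on the other), with overlapping matches counted, occurred in 18 of the 36 (50.0%), against 1079 of all 27025 genes with a window (4.0%). A gamma-activated site, TTCNNNGAA, which reads the same on both strands, occurred in 8 of the 36 (22.2%) and in 9.6% of all genes. Among the tested genes with a window, the ISRE core was found in 9 of the 18 that rose after 5-aza and in 5 of the 10 that were not called, 50.0% of each. A match is a match of letters and not a measured binding site. Isg15 has 3 overlapping matches, which begin 78, 72 and 66 bases before its start, Ifit1 has 2 (104 and 85 bases before), Ifit3 has 2 (156 and 122 bases before) and Bst2 has 2 that overlap (130 and 124 bases before). The Oasl2, Irf7 and Xaf1 windows hold no match. Usp18 had no window, so its promoter was not searched. Capitals mark the ISRE matches, and each sequence reads 5′ to 3′ along the strand of its gene.
Isg15 promoter, chr4:156200769-156201068, - strand: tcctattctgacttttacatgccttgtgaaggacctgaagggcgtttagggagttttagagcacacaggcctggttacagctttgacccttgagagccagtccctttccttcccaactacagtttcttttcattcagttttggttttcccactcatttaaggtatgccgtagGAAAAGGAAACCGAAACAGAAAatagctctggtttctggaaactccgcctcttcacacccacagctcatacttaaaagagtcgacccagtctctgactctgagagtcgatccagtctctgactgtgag
Ifit1 promoter, chr19:34640639-34640938, + strand: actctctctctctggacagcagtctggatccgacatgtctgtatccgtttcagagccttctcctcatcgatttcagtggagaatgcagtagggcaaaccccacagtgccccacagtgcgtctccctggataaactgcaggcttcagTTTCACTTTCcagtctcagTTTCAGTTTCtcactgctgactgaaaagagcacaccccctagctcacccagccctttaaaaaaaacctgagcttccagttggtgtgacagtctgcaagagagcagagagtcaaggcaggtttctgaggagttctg
Ifit3 promoter, chr19:34583279-34583578, + strand: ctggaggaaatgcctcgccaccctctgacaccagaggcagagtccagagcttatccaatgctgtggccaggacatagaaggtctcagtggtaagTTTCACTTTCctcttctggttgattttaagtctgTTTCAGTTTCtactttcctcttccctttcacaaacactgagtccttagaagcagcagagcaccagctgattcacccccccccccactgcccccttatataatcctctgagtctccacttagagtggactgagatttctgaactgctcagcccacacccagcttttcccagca
Oasl2 promoter, chr5:114896684-114896983, + strand: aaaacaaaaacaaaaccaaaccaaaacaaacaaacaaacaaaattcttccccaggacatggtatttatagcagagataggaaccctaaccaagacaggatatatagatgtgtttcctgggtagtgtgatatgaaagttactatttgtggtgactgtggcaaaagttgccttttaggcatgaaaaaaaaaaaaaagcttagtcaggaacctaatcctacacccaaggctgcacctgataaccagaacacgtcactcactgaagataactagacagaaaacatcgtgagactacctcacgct
Irf7 promoter, chr7:141266375-141266674, - strand: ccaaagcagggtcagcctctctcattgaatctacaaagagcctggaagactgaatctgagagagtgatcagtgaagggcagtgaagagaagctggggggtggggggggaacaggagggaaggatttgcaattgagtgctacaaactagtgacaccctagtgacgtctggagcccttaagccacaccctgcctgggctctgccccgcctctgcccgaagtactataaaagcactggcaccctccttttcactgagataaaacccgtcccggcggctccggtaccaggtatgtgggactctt
Bst2 promoter, chr8:71537423-71537722, - strand: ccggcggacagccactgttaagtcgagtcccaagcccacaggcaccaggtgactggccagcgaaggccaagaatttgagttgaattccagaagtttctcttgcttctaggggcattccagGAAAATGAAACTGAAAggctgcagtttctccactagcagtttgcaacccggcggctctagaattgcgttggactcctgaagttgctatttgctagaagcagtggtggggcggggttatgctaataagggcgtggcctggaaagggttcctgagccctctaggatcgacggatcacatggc
Xaf1 promoter, chr11:72301379-72301678, + strand: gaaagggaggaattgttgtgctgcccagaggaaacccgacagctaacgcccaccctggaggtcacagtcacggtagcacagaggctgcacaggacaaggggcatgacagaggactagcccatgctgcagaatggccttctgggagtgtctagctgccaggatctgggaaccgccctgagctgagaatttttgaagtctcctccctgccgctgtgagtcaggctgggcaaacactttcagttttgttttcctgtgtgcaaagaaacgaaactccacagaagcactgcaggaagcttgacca

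All 3 Ifit genes tested, which encode proteins that bind foreign RNA and block its translation, rose after 5-aza in Setdb1 hairpin cells, and Ifit1 and Ifit2 also did in control hairpin cells. Ifit1 (ENSMUSG00000034459, chr19:34640871-34650009) stood at 0.829, 0.742 and 1.21 RPM in control hairpin, 1.64, 4.41 and 2.08 with 5-aza, 0.716, 0.905 and 0.816 in Setdb1 hairpin and 1.82, 4.02 and 2.19 RPM with 5-aza. There was no overlap between treated and untreated libraries, and replicate A was above any other treated library in both sets. The log2 fold change was 1.45 ± 0.36 (adjusted p = 0.0164) in control hairpin cells and 1.64 ± 0.36 (adjusted p = 0.00676) in Setdb1 hairpin cells. Ifit1 entered the test only through its levels after 5-aza, which favours a rise. Ifit3 (ENSMUSG00000074896, chr19:34583531-34588731) stood at 1.21, 1.4 and 1.81 RPM in control hairpin, 1.68, 5.21 and 2.27 with 5-aza, 1.07, 1.22 and 1.34 in Setdb1 hairpin and 3.91, 5.72 and 2.99 RPM with 5-aza. Control hairpin + 5-aza replicate 1 fell within the range of the untreated libraries, while in Setdb1 hairpin cells the groups did not overlap. It rose by 1.75 ± 0.35 (adjusted p = 0.00454) in Setdb1 hairpin cells and gave 0.90 ± 0.35 (adjusted p = 0.0938) in control hairpin cells. Since 51.2% of its exonic stretches of 50 bases also occur in another transcript, chiefly Ifit3b, its level is uncertain. Ifit2 (ENSMUSG00000045932, chr19:34550694-34576419) was higher per kilobase of exon, at 3.79 RPM per kb in control hairpin cells against 0.349 for Ifit1 and 0.844 for Ifit3. It stood at 15.5, 14.1 and 15.0 RPM in control hairpin, 18.0, 17.2 and 16.7 with 5-aza, 16.2, 14.4 and 16.2 in Setdb1 hairpin and 20.3, 18.4 and 18.4 RPM with 5-aza, without overlap between treated and untreated libraries in either set. These rises came to 0.22 ± 0.064 (adjusted p = 0.0341) and 0.29 ± 0.064 (adjusted p = 0.00706). Ifi35 (ENSMUSG00000010358, chr11:101448407-101458698), a protein of interferon signalling that partners with Nmi, stood at 8.99, 8.87 and 8.07 RPM in control hairpin, 10.5, 10.3 and 9.96 with 5-aza, 8.49, 7.91 and 8.80 in Setdb1 hairpin and 10.6, 11.5 and 10.6 RPM with 5-aza. Again no treated library overlapped an untreated one. Its log2 fold change was 0.25 ± 0.064 (adjusted p = 0.0187) in control hairpin cells and 0.37 ± 0.064 (adjusted p = 0.00199) in Setdb1 hairpin cells.

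**Figure D4:**
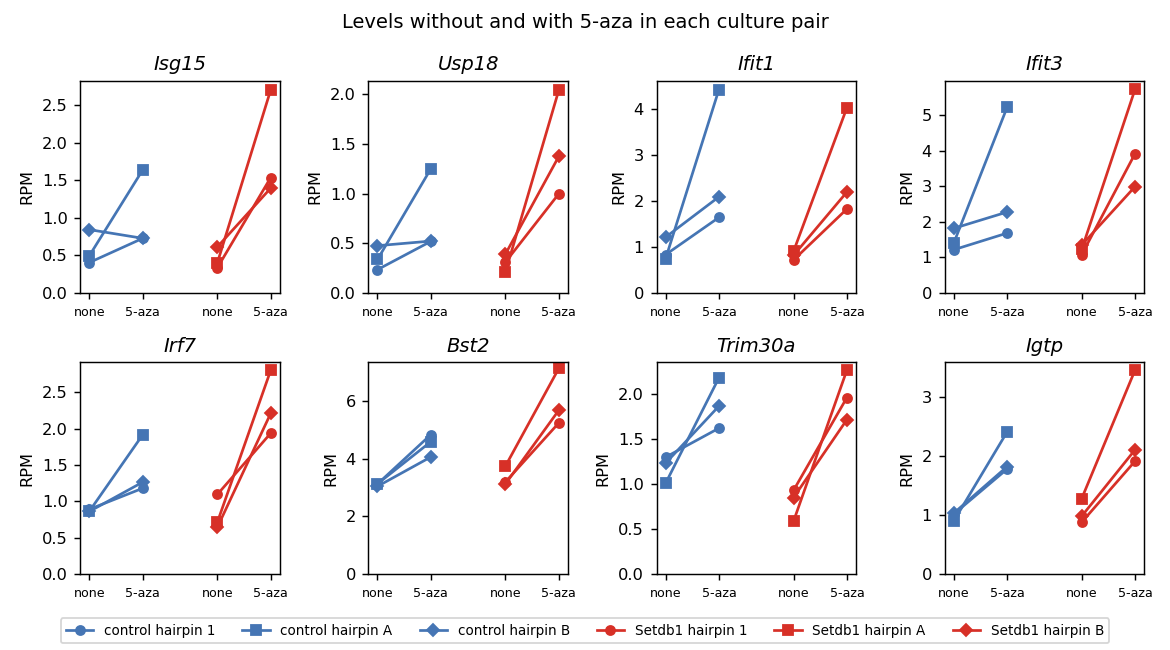
Level in RPM (vertical axes, each from 0) without and with 5-aza of 8 genes, with a line for each culture that shares a hairpin and a replicate label; blue lines are control hairpin and red lines Setdb1 hairpin. All 3 red lines rise for each of the 8 genes, the blue line of replicate B falls for Isg15, and the squares of replicate A are the highest treated points in every panel except Bst2 in control hairpin cells. Isg15, Usp18, Ifit1 and Irf7 entered the test only through their levels after 5-aza, which favours a rise.

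Oasl2 (ENSMUSG00000029561, chr5:114896936-114912234), a member of the oligoadenylate synthetase family of antiviral proteins, stood at 0.638, 0.725 and 1.06 RPM in control hairpin, 0.684, 2.30 and 0.652 with 5-aza, 0.549, 0.758 and 0.527 in Setdb1 hairpin and 1.50, 3.14 and 1.63 RPM with 5-aza. In control hairpin cells replicate A alone rose above the untreated libraries, whereas in Setdb1 hairpin cells the groups did not overlap. The log2 fold change was 0.36 ± 0.44 (adjusted p = 0.604) and 1.71 ± 0.44 (adjusted p = 0.0145). Oasl2 entered the test only through its levels after 5-aza, which favours a rise. Bst2 (ENSMUSG00000046718, chr8:71534264-71537437), or tetherin, which holds budding virus particles at the cell surface, stood at 3.12, 3.13 and 3.04 RPM in control hairpin, 4.83, 4.59 and 4.06 with 5-aza, 3.20, 3.75 and 3.13 in Setdb1 hairpin and 5.24, 7.12 and 5.67 RPM with 5-aza. No treated library overlapped an untreated one. It rose by 0.53 ± 0.12 (adjusted p = 0.00904) in control hairpin cells and by 0.83 ± 0.12 (adjusted p = 0.000671) in Setdb1 hairpin cells. Trim30a (ENSMUSG00000030921, chr7:104409025-104465193), a Trim family protein that dampens innate signalling, stood at 1.30, 1.01 and 1.23 RPM in control hairpin, 1.62, 2.17 and 1.86 with 5-aza, 0.930, 0.589 and 0.850 in Setdb1 hairpin and 1.96, 2.26 and 1.71 RPM with 5-aza. The untreated Setdb1 hairpin libraries were the lowest of the 4 groups and did not overlap any other. The log2 fold change after 5-aza was 0.68 ± 0.19 (adjusted p = 0.0277) in control hairpin cells and 1.34 ± 0.19 (adjusted p = 0.000715) in Setdb1 hairpin cells. Lgals3bp (ENSMUSG00000033880, chr11:118392751-118402092), a secreted glycoprotein that binds galectins, stood at 24.7, 25.8 and 26.2 RPM in control hairpin, 30.0, 41.0 and 34.2 with 5-aza, 19.7, 24.5 and 22.9 in Setdb1 hairpin and 26.0, 40.1 and 28.2 RPM with 5-aza. The groups did not overlap in either set of cells. It was called in Setdb1 hairpin cells (0.47 ± 0.15 (adjusted p = 0.0338)) and not in control hairpin cells (0.45 ± 0.15 (adjusted p = 0.0561)), although the changes were of nearly equal size. Ifitm3, which blocks virus entry by membrane fusion, had the highest level of the whole set per kilobase of exon, 118 ± 6.82 RPM per kb (SD, n = 3) in control hairpin cells. It stood at 74.7, 83.6 and 81.1 RPM in control hairpin and 96.4, 117 and 106 RPM with 5-aza, without overlap, and was not called there (0.41 ± 0.13 (adjusted p = 0.0522)) or in Setdb1 hairpin cells (0.17 ± 0.13 (adjusted p = 0.352)), although it was in the latter with the replicate block (adjusted p = 0.0420). Samd9l, an antiviral growth suppressor, gave 0.17 ± 0.19 (adjusted p = 0.543) and 0.090 ± 0.19 (adjusted p = 0.738).

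Of the 4 interferon-inducible GTPases tested, which act against intracellular pathogens, Gbp2, Gbp3 and Igtp rose in both sets of cells. Igtp (ENSMUSG00000078853, chr11:58199556-58207591) stood at 1.02, 0.901 and 1.04 RPM in control hairpin, 1.78, 2.41 and 1.82 with 5-aza, 0.882, 1.28 and 0.986 in Setdb1 hairpin and 1.92, 3.46 and 2.11 RPM with 5-aza. Every treated library was above every untreated one. It rose by 1.01 ± 0.22 (adjusted p = 0.00846) and 1.22 ± 0.22 (adjusted p = 0.00260). Its exons overlap those of Irgm2, a related GTPase, and 11.8% of its stretches of 50 bases are shared. Gbp3 (ENSMUSG00000028268, chr3:142560052-142573209) stood at 0.489, 0.495 and 0.496 RPM in control hairpin, 0.829, 1.57 and 0.726 with 5-aza, 0.716, 0.610 and 0.612 in Setdb1 hairpin and 1.36, 1.80 and 0.995 RPM with 5-aza, again without overlap. It rose by 0.99 ± 0.27 (adjusted p = 0.0266) and 1.06 ± 0.27 (adjusted p = 0.0146). Gbp3 entered the test only through its levels after 5-aza, which favours a rise. Gbp2 (ENSMUSG00000028270, chr3:142620602-142638008), at 3.16 RPM per kb of exon in control hairpin cells against 0.151 for Gbp3, stood at 8.25, 7.65 and 7.98 RPM in control hairpin, 9.62, 12.2 and 10.5 with 5-aza, 7.75, 8.23 and 8.91 in Setdb1 hairpin and 10.4, 13.7 and 9.87 RPM with 5-aza. The treated libraries lay above the untreated ones in both sets, with almost the same log2 fold change of 0.43 ± 0.12 (adjusted p = 0.0261) and 0.44 ± 0.12 (adjusted p = 0.0186). Irgm1, the regulator of this GTPase family, was among the 2 genes whose log2 fold change in Setdb1 hairpin cells was negative (-0.046 ± 0.14 (adjusted p = 0.826)). It stood at 33.8, 44.2 and 33.5 RPM in Setdb1 hairpin and 30.6, 41.5 and 35.9 RPM with 5-aza, and these ranges overlapped. The ADP-ribosyltransferases Parp9 and Parp14 and the Parp9 partner Dtx3l were not called without the replicate block, with which Parp14 was (adjusted p = 0.0148 in Setdb1 hairpin cells). Their log2 fold changes after 5-aza were 0.22 ± 0.18 (adjusted p = 0.385), 0.51 ± 0.24 (adjusted p = 0.130) and 0.28 ± 0.18 (adjusted p = 0.244) in Setdb1 hairpin cells. Replicate A was the highest treated library of both sets for all 3, and the exons of Parp9 and Dtx3l overlap each other.

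Knockdown of Setdb1 without 5-aza gave 1 call in the gene set, towards a lower level. Of the 31 tested genes 0 were called higher, against 9.01% of all genes, and 1 was called lower, against 3.4% of all genes. At an unadjusted p under 0.05, 3 passed (Xaf1, Trim30a and Herc6), as did 3621 of all 13134 genes. limma voom on recovered reads called the same 0 and 1. The median log2 fold change was -0.063, and 0.031 over all genes. All 3 Setdb1 hairpin libraries lay above all 3 control hairpin libraries for 2 genes (24.04% of all genes) and below them for 5 (10.4% of all genes). The gene called was Xaf1 (ENSMUSG00000040483, chr11:72301629-72313733), an interferon-inducible antagonist of the apoptosis inhibitor XIAP. It stood at 8.33, 7.39 and 8.82 RPM in control hairpin and 3.24, 3.35 and 4.06 RPM in Setdb1 hairpin, and at 10.6, 16.3 and 11.4 and 5.87, 9.44 and 6.55 RPM with 5-aza. Every Setdb1 hairpin library was below the control hairpin libraries of the same treatment. The log2 fold change was -1.21 ± 0.19 (adjusted p = 0.00156) without 5-aza and -0.82 ± 0.19 (adjusted p = 0.0104) with it. Xaf1 nevertheless rose after 5-aza in both sets, by 0.62 ± 0.19 (adjusted p = 0.0369) in control hairpin cells and 1.01 ± 0.19 (adjusted p = 0.00280) in Setdb1 hairpin cells, without overlap. Trim30a showed the second lowest value without 5-aza, -0.60 ± 0.19 (adjusted p = 0.0607), and its 3 Setdb1 hairpin libraries were below its 3 control libraries. With 5-aza the difference was 0.070 ± 0.19 (adjusted p = 0.822) and the groups overlapped. With 5-aza, 1 gene, Bst2, was called higher in Setdb1 hairpin cells, against 14.5% of all genes, and 1, Xaf1, lower, against 5.37% of all genes. The difference for Bst2 was 0.41 ± 0.12 (adjusted p = 0.0280), and its 3 Setdb1 hairpin + 5-aza libraries lay above the 3 of control hairpin + 5-aza. This call was lost in 8 of 23 alternatives (adjusted p up to 0.11): median centring, quantile normalisation, fitting only the 2 groups, and leaving out replicate A or B of either 5-aza group or replicate A of both. Groups did not overlap for 6 genes, of which 5 (Herc6, Irf7, Bst2, Ifi35 and Ifit2) were above, against 24.6% of all genes, and 1 was below, against 10% of all genes. Irf7 differed by 0.69 ± 0.23 (adjusted p = 0.0519), Isg15 by 0.91 ± 0.39 (adjusted p = 0.116), Usp18 by 1.02 ± 0.40 (adjusted p = 0.0936) and Oasl2 by 0.97 ± 0.44 (adjusted p = 0.141), none of which passed. All of these genes entered the test only through their levels after 5-aza, so the filter bears on these differences. The counts turned on single libraries. Without control hairpin + 5-aza replicate A, 8 genes other than Bst2 were called higher, without Setdb1 hairpin replicate 1, 2 were, and without control hairpin + 5-aza replicate B, Setdb1 hairpin + 5-aza replicate A or Setdb1 hairpin + 5-aza replicate B, 0 were. Without replicate A in both 5-aza groups, 4 were called higher (Oasl2, Irf7, Eif2ak2 and Ifit3) and 2 lower (Ifitm3 and Xaf1). Xaf1 was no longer called lower with 5-aza without Setdb1 hairpin + 5-aza replicate 1 (0 genes), and 3 genes were called lower without Setdb1 hairpin + 5-aza replicate A. The share of all genes called was not computed for the fits with 1 library left out.

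**Figure D5:**
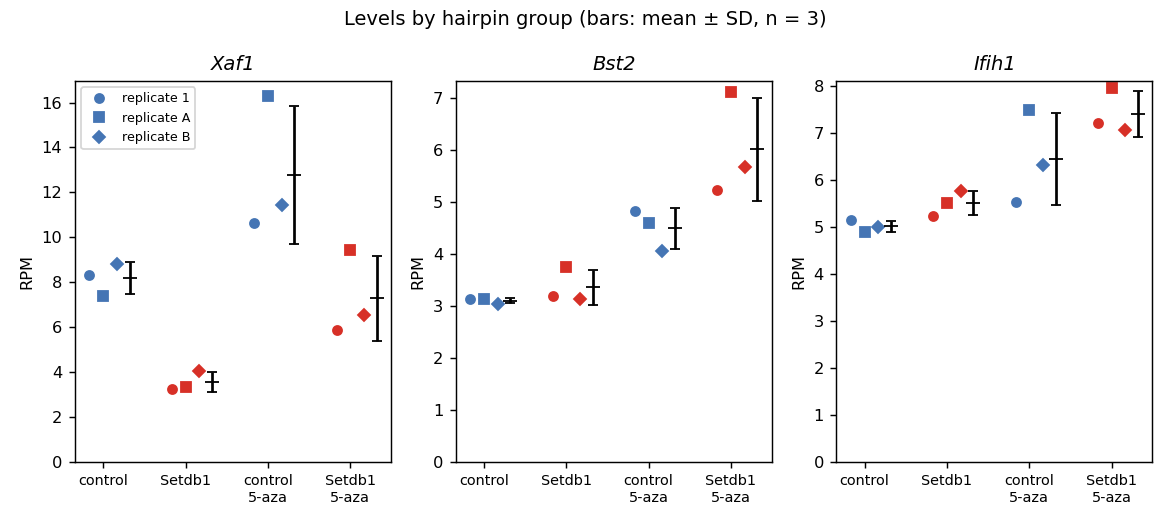
Level in RPM (vertical axes, each from 0) of Xaf1, Bst2 and Ifih1 in each library, blue for control hairpin and red for Setdb1 hairpin, with the mean ± SD of 3 libraries beside each group. Xaf1 is below 4.1 RPM in all 3 Setdb1 hairpin libraries and above 7.3 RPM in all 3 control hairpin libraries, and Bst2 is highest in Setdb1 hairpin + 5-aza.

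Whether the response to 5-aza itself differed between Setdb1 hairpin and control hairpin cells was tested as an interaction. Of the 31 genes 0 were called (limma), against 0.388% of all genes. At an unadjusted p under 0.05, 3 passed (Isg15, Irf7 and Trim30a), as did 701 of all 13134 genes. limma voom also called 0. The response in Setdb1 hairpin cells minus that in control hairpin cells was 1.26 ± 0.55 (adjusted p = 0.794) for Isg15, 0.82 ± 0.32 (adjusted p = 0.794) for Irf7 and 0.67 ± 0.27 (adjusted p = 0.794) for Trim30a on the log2 scale. Oasl2, with 1.35 ± 0.62 (adjusted p = 0.794), had the highest value of the 31, and its standard error was large, with control hairpin + 5-aza replicate A at 2.30 RPM and the other treated controls at 0.684 and 0.652 RPM. Over the 31 genes the median was 0.082, and 0.02 over all genes. Isg15, Irf7 and Oasl2 are among the 6 genes that entered the test only through their levels after 5-aza, so the filter bears on these values. The median was 1.01 over those 6 and 0.072 over the other 25. For all genes of each kind it was -0.008 and 0.021. The 19 calls in one set of cells and 10 in the other therefore do not show that any single gene responded differently.

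Calls differed in how firmly they held when 1 library was left out or a setting changed. In Setdb1 hairpin cells 12 of the 19 calls after 5-aza were kept in every alternative run (Usp18, Isg15, Ifit3, Ifit1, Irf7, Trim30a, Igtp, Xaf1, Bst2, Ifih1, Ifi35 and Ifit2), and 14 to 21 genes were called with any 1 library left out. For fits with 1 library left out, here and in control hairpin cells, the share of all genes called was not computed. Without replicate A in both 5-aza groups, 19 were called higher, against 23.6% of all genes, with Eif2ak2 gained and Tlr3 lost. Tlr3 was the weakest of the 19, with an adjusted p of up to 0.197, and was lost without control hairpin A or B, control hairpin + 5-aza 1, Setdb1 hairpin 1 or A, or any Setdb1 hairpin + 5-aza library. Mavs (up to 0.123) was lost without control hairpin + 5-aza B or any 1 of the 6 Setdb1 hairpin libraries. Lgals3bp (up to 0.111) was lost without Setdb1 hairpin 1 or B or Setdb1 hairpin + 5-aza A or B, Gbp2 (up to 0.0729) without Setdb1 hairpin 1 or A, and Trim25 (up to 0.0612) without Setdb1 hairpin 1 or Setdb1 hairpin + 5-aza B. Gbp3 and Oasl2 were lost when replicates 1 were all left out, as were Tlr3, Lgals3bp and Gbp2. Tlr3 and Lgals3bp were also lost without a filter, with median centring, with quantile normalisation and with only the 2 groups fitted. Mavs was lost with median centring and Gbp2 with quantile normalisation. In control hairpin cells 1 of the 10 calls, that of Igtp, was kept throughout. There 3 genes were called without control hairpin A, 3 without control hairpin B, 4 without control hairpin + 5-aza A and 5 without control hairpin + 5-aza B. Without replicate A in both 5-aza groups 9 were called higher, against 15.9% of all genes, with Ifih1, Ifit2 and Trim30a lost and Ifitm3 and Lgals3bp gained. In these cells Ifit1 was lost without control hairpin A (adjusted p = 0.0656), Gbp3 without any control hairpin library or control hairpin + 5-aza A (up to 0.258), and Ifi35 without control hairpin B or control hairpin + 5-aza 1 (up to 0.0901). Ifit2, Ifih1, Trim30a, Gbp2 and Xaf1 were lost without control hairpin A, control hairpin B, control hairpin + 5-aza A or control hairpin + 5-aza B, Xaf1 also without control hairpin 1 and Ifit2 also without control hairpin + 5-aza 1. In the non-overlap counts, all 3 treated libraries were above all 3 untreated ones for 16 of the 31 genes in control hairpin cells (24.9% of all genes) and 21 in Setdb1 hairpin cells (31.2%), and below for 0 in both (12.7% and 12.2% of all genes). Both counts include Gbp3, Usp18, Irf7 and Ifit1, and that in Setdb1 hairpin cells also Isg15 and Oasl2. These genes entered the test only through their levels after 5-aza, which favours a rise.

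The 14 genes under the test level were described by their reads. They include the oligoadenylate synthetases, which sense double-stranded RNA, the Mx GTPases that block virus replication, the sensors Dhx58 and Zbp1 and the antiviral enzymes Rsad2 and Cmpk2. Ifi44, which encodes an interferon-induced antiviral protein, had 13, 13 and 10 reads in control hairpin, 15, 34 and 22 with 5-aza, 14, 15 and 15 in Setdb1 hairpin and 52, 72 and 46 with 5-aza. The 3 Setdb1 hairpin + 5-aza libraries were the highest of the 12. Oas3 had 2, 2 and 1 reads in control hairpin, 0, 6 and 0 with 5-aza, 1, 3 and 1 in Setdb1 hairpin and 19, 10 and 19 with 5-aza. Here too the 3 Setdb1 hairpin + 5-aza libraries were the highest, although few reads were counted. Zbp1, a sensor of Z-form nucleic acid, had 0, 2 and 6 reads in Setdb1 hairpin and 10, 33 and 6 with 5-aza, with replicate A highest. With the filter removed, Ifi44, Oas3, Zbp1, Oas1g, Sp100 and Cmpk2 were called higher after 5-aza in Setdb1 hairpin cells (adjusted p = 0.00241 to 0.0324), and Ifi44 and Oas3 were called higher in Setdb1 hairpin + 5-aza than in control hairpin + 5-aza (adjusted p = 0.0184 and 0.0166). The share of all genes called without the filter was not computed, so these calls cannot be set against it. In that fit Oas3 (3.36), Zbp1 (2.45), Oas1g (2.286) and Oasl1 (2.275, not called) had fitted log2 fold changes above that of Usp18, from few reads. Sp100, a nuclear body protein, had 24, 31 and 31 reads in control hairpin, 42, 42 and 42 with 5-aza, 14, 23 and 25 in Setdb1 hairpin and 38, 40 and 49 with 5-aza. Cmpk2, a mitochondrial nucleotide kinase, had 11, 10 and 8 reads in control hairpin, 10, 30 and 14 with 5-aza, 9, 7 and 10 in Setdb1 hairpin and 18, 33 and 21 with 5-aza. Oas1g had 1, 1 and 3 reads in control hairpin, 4, 7 and 2 with 5-aza, 0, 1 and 0 in Setdb1 hairpin and 7, 5 and 3 with 5-aza. For all 3 the treated Setdb1 hairpin libraries lay above the untreated ones. Oasl1, a relative of Oasl2, had 4, 3 and 1 reads in control hairpin, 5, 15 and 2 with 5-aza, 5, 1 and 11 in Setdb1 hairpin and 16, 29 and 15 with 5-aza, and Mx2 had 4, 0 and 6 reads in control hairpin, 2, 14 and 6 with 5-aza, 0, 6 and 0 in Setdb1 hairpin and 4, 10 and 4 with 5-aza. Neither was called with the filter removed. Mx1 had at most 5 reads in a library and none in the 3 control hairpin libraries, Oas1a at most 3 and Oas2 at most 4. Oas1a and Oas1g share 57.6% and 45.7% of their stretches of 50 bases with other transcripts, and reads may have been split between them. Dhx58 had 25 to 50 reads, Rtp4, a chaperone of receptor trafficking, 15 to 74, and Rsad2 (viperin) 2 to 26, the highest in each case in Setdb1 hairpin + 5-aza A. The shortage of reads, not a measured absence of change, is the limit for these genes. Ifi27 was absent by name, and the gene with its identifier, listed as Ifi27l1, stood at 10.3, 11.0 and 11.3 RPM in control hairpin, 13.0, 18.5 and 15.9 with 5-aza, 11.1, 12.5 and 10.4 in Setdb1 hairpin and 13.3, 18.5 and 14.0 RPM with 5-aza, so that treated libraries lay above untreated ones in both sets.

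The ligands that start the interferon response were not detected at this depth. Ifnb1, Ifna1, Ifna2, Ifna4, Ifna5, Ifne and Ifng had 0 reads in all 12 libraries, which allows a level of up to 0.051 to 0.0716 RPM in each (3 reads, counting error only), in RNA taken on day 7. The chains of the type I receptor were present. Ifnar1 ranged from 75.9 to 82.7 RPM and Ifnar2 from 38.4 to 45.9 RPM over the 12 libraries. Of 5 ligand and receptor genes tested, 1 was called after 5-aza, where 21.4% of all genes were called higher in Setdb1 hairpin cells: the receptor subunit Il10rb (0.21 ± 0.054, adjusted p = 0.014). Of 18 signalling and regulatory genes tested, 2 rose in control hairpin cells (13.47% of all genes), the receptor kinase Tyk2 and the adaptor Traf3. In Setdb1 hairpin cells 3 rose (21.4% of all genes), among them Tyk2 and the NF-kappaB subunit Rela. Neither count exceeded the share of all genes. The median log2 fold change of the 18 was 0.065 and 0.077, and 0.042 and 0.058 over all genes. Of 14 other sensors and adaptors tested, 5 rose and 1 fell in control hairpin cells (13.47% and 5.34% of all genes) and 7 rose in Setdb1 hairpin cells (21.4% of all genes). The latter included Tlr4, the lipopolysaccharide receptor (0.55 ± 0.075), and the DNA exonuclease Trex1 (0.44 ± 0.064). The gene that fell was Samhd1, which degrades nucleotides. Of 38 further interferon-stimulated genes tested, 16 rose in control hairpin cells (13.47% of all genes) and 21 in Setdb1 hairpin cells (21.4% of all genes), with median log2 fold changes of 0.315 and 0.310. Examples in Setdb1 hairpin cells were Gbp9 (1.4 ± 0.23), Ifi203 (1.38 ± 0.27) and Ifi204 (0.70 ± 0.062). Gbp9 and Ifi203, which are among the 16 and the 21, reached 1 RPM only in libraries with 5-aza, so that the filter favoured their rise. This list also held genes that differed between hairpins without 5-aza: 6 were higher in Setdb1 hairpin cells (9.01% of all genes), led by the Schlafen genes Slfn2 (2.48 ± 0.33, adjusted p = 0.000532) and Slfn9 (1.21 ± 0.11, adjusted p = 4.13e-05), with Apol9a, Apol9b, Ifi204 and Mndal, and 2 were lower (3.4% of all genes), Pml (-0.21 ± 0.048) and Ube2l6 (-0.33 ± 0.086). Slfn2 reached 1 RPM only in Setdb1 hairpin libraries, so that the filter favoured a higher level there.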

How the data were processed

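RNA from primary MEFs was sequenced as single-end reads in 13 libraries, of which 12 carried a named hairpin. The authors deposited 1 table of log2 values, the log2 of reads in a gene per 1 M (mega) library reads (RPM). The submitters' processing notes name CASAVA 1.4 and mm10. The aligner, counting settings and strand of this table were not given in the sources used here. Every deposited value was a whole multiple of what 1 read is worth in its library, and a gene without reads held the value of 0.9 read. For 96.4% of the gene identifiers GENCODE M21 (GRCm38) held the gene, 99.7% of them at the same place.

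Groups came from the sample titles. Genes at 1 RPM or more in any 3 of these 12 libraries (13134) were tested with limma 3.58.1 (lmFit, contrasts.fit and eBayes with trend, two-sided, R 4.3.3) on the deposited log2 values, with 4 group means fitted together and 5 contrasts. Genes were called at a Benjamini-Hochberg adjusted p under 0.05. All listed genes are accounted for, and tested genes called in any contrast are given library by library. A few genes of the pathway and marker lists are not reported here. The members and gene lists were chosen with earlier results of these data known. Promoter windows came from RefSeq (GRCm38.p6), and exon lengths from GENCODE.

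For the replicate labels, deviations from the group means were correlated between libraries of the same hairpin and label with and without 5-aza. The Setdb1 hairpin pairs gave 0.472, 0.634 and 0.413, all above 0.1, and were taken as paired. The control pairs gave 0.586, 0.149 and 0.0999 and were not. With the pairing as a block, 24 genes rather than 19 were called higher after 5-aza in Setdb1 hairpin cells, with the 19 among them. Alternatives were pseudocounts, filters, scalings, the samples fitted, the block, limma voom and leaving out each library. Intervals and floors cover counting error only.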

Additional observations from a re-analysis of the deposited data

Results flagged for a closer look

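One library, treated with 5-aza and named PGK_5aza, has no hairpin in its labels, was set in no group and entered no comparison. The study's methods use a PGK sample as the source of PGK variants, and the strain and genotype of this library were not given in the sources used here. Strain, genotype and the lack of a hairpin cannot be told apart. For 30 of the 31 tested genes its level was higher than in each of the 3 control hairpin + 5-aza libraries, as it was for 37.6% of all genes. The same 30 genes were higher in it than in any of the 12 hairpin libraries, as were 19.4% of all genes. The exception was Mavs, at 30.1 RPM. This library was less deep, with 17.4 M (mega) reads in genes, and has no replicate, so the difference was not tested.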

How the results depend on the processing

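Every result is compared with its value under each alternative. None of the calls changed direction. Of 338 values for the called genes under alternatives other than leaving out 1 library, 293 kept their call and 45 lost it, and of 384 values with 1 library left out, 327 kept it and 57 lost it. Genes called lower in Setdb1 hairpin cells without 5-aza numbered 2 rather than 1 with median centring, quantile normalisation and replicate A left out of both 5-aza groups (chosen after seeing the data). With 5-aza, genes called higher in Setdb1 hairpin cells numbered 2 with log2(RPM + 1), log2(RPM + 0.1) and limma voom (added after seeing the data), 3 without a filter, 0 with median centring, quantile normalisation or only the 2 groups compared and 4 with replicate A left out of both 5-aza groups, and 0 to 8 with 1 library left out. Those called lower numbered 0 with replicates A and B only, 2 with replicate A left out of both 5-aza groups and 0 to 3 with 1 library left out. After 5-aza in control hairpin cells, 6 were called higher at a filter of 5 RPM, 3 with quantile normalisation, 4 with replicates A and B only and 3 to 13 with 1 library left out. In Setdb1 hairpin cells 9 were called at a filter of 5 RPM, which leaves fewer genes to test. On the log2(RPM + 1) scale the changes of genes near 1 RPM are smaller, 0.903 for Usp18 and 0.966 for Isg15. The cause of the other shifts was not tested. The counts in this paragraph are given without the share of all genes called in each fit.

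With the replicate block, libraries of the same hairpin and label, or of the same label between hairpins, were compared within pairs. In Setdb1 hairpin cells without 5-aza, 0 genes were called higher, against 12.9% of all genes, and 2 lower. With 5-aza 3 were called higher there, against 20.3% of all genes, and 3 lower. After 5-aza 17 were called higher in control hairpin cells, against 20.6% of all genes, and 24 in Setdb1 hairpin cells, against 28.3%. Between hairpins the deviations of same-labelled libraries correlated at -0.47 to 0.686, so that these share only a label. The block removed none of the calls. Count-model tests on the recovered reads were planned and not run, since the deposited values are log2 values. Depth limits the 14 genes under the test level and the 6 that reached it only with 5-aza.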

Other observations

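In the PGK_5aza library, whose labels name no hairpin, Ifit1 stood at 26.6 RPM, Ifit3 at 27.2, Isg15 at 14.3, Oasl2 at 16.0, Usp18 at 8.63, Irf7 at 8.54 and Xaf1 at 45.2 RPM. In the 12 hairpin libraries the highest values of these genes were 4.41, 5.72, 2.70, 3.14, 2.04, 2.80 and 16.3 RPM. Genes under the test level also had more reads there for its depth, with 206 for Rtp4, 175 for Ifi44, 105 for Cmpk2 and 86 for Rsad2.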
